A study of Mus musculus with 6 samples.

Results

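DNA replication and mitosis transcripts were followed in an RNA immunoprecipitation experiment on LIN28B, an RNA-binding protein of fetal blood progenitors. The set was 48 named genes of the 54752 in the expression table, chosen by role and matched by gene symbol. There were 32 replication transcripts, of which 11 act in origin licensing, 16 at the replication fork and 5 in nucleotide supply, and 16 mitosis transcripts for cyclins, kinases and their partners. Of the 48, 47 had a mean of at least 10 FPKM (fragments per kilobase of transcript, scaled to the mapped fragments of a library) over the 3 input libraries and entered the tests. Orc1 was below that level.

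A dividing cell first licenses its origins, when the origin recognition complex, CDC6 and CDT1 load the MCM helicase, and then fires them as CDC45 and GINS join MCM at the fork. The PCNA clamp, loaded by replication factor C, holds the polymerases, RPA coats single-stranded DNA, and ribonucleotide reductase and thymidylate synthase supply the nucleotides. At mitosis CDK1 with A- and B-type cyclins, Polo-like and Aurora kinases drive spindle assembly, and the anaphase-promoting complex with CDC20 and the E2 enzyme UBE2C then destroys the cyclins. IL-7 is the growth factor that keeps B cell progenitors in cycle in culture.

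Adult bone marrow freed of red and adherent cells was grown for 5 days on doxycycline and IL-7, the latter at 20 ng/mL, and the cells were lysed for anti-FLAG immunoprecipitation (IP), with part of the lysate set aside as input. The 2 tet-LIN28B mice carried a doxycycline-inducible, FLAG-tagged human LIN28B cDNA at Col1a (tetO-LIN28B) and the Rosa26 rtTA*m2 transactivator. The 1 control was a littermate with the Rosa26 rtTA allele and without the LIN28B transgene, so all 3 cultures had the transactivator and doxycycline, and the control IP shows what the antibody and beads retain without tagged LIN28B. Each mouse gave 1 input and 1 IP library, 6 in all. The transactivator is driven from Rosa26 and is not limited to B cells, the doxycycline dose is 0.1 mg/mL in the sample labels but stated in another unit in the study's methods, and the labels call the mice biological replicates whereas the study's text at one place calls them technical ones.

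The input libraries held all 10 B cell progenitor markers examined, with a summed level of 11127 to 14171 FPKM. They also held all 8 myeloid markers, at 7431, 4647 and 6399 FPKM in tet-LIN28B mouse 1, mouse 2 and the control, and 3 megakaryocyte markers at 884, 491 and 496 FPKM. Of the myeloid markers S100a9 alone had a mean input of 3153 FPKM. Sums of FPKM are not shares of cells, and the study states that its cultures were mostly B cells after 5 days. Summed levels were 41.8 to 135 FPKM for T cell markers, 16.9 to 41.2 for erythroid, 17.3 to 43.2 for NK cell and 57.0 to 66.0 for basophil and mast cell markers, and at most 0.06 FPKM for stromal markers, with Col3a1 at 0. Across the tested genes the log2 levels of both tet-LIN28B inputs correlated at r = 0.961, and 0.962 was found between the IPs of these mice, whereas each tet-LIN28B IP correlated with its own input at 0.778 and 0.809 and the control IP with its input at 0.932. In bulk libraries fewer cycling cells and less RNA per cell cannot be told apart.

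LIN28 proteins bind GGAGA-like sequences through their zinc knuckles. The letters GGAGA, searched on the sense strand of the longest GENCODE M21 protein-coding model of each gene, were present in 46 of the 47 tested members and in 95.3% of the 5653 tested genes with such a model. Only Cks1b among the tested members had no match. The windows below show the first match in the coding sequence that lies in 1 exon with 10 bases on each side. The first 3 members had a higher FPKM in the tet-LIN28B IP than in the input and the last 3 a lower one. The motif is in capitals, on the transcript strand of GRCm38.
Mcm3: acaaccccctGGAGAcagagtatgg
Mcm4: tcacccaatcGGAGAcgtagaggcg
Pcna: tagccacattGGAGAtgctgttgtg
Mcm2: agaagaggatGGAGAggaactcatt
Cdc45: acgaggcggaGGAGAacatgctctc
Aurkb: tggctcagaaGGAGAacgcctaccc
The windows lie in Mcm3, exon 5 of 17, chr1:20814893-20814917, in Mcm4, exon 2 of 16, chr16:15636735-15636759, in Pcna, exon 4 of 6, chr2:132251349-132251373, in Mcm2, exon 2 of 16, chr6:88897304-88897328, in Cdc45, exon 11 of 20, chr16:18795858-18795882, and in Aurkb, exon 1 of 8, chr11:69045962-69045986. The letters were thus in transcripts at both ends of the IP/input range. The median density was 2.37 matches per kilobase in replication members, 2.23 in mitosis members and 1.90 in all tested genes.

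The first question was how abundant the members were. In the inputs the median replication member was at 49.5, 64.8 and 69.0 FPKM in tet-LIN28B mouse 1, mouse 2 and the control, and the median mitosis member at 79.7, 79.3 and 91.4 FPKM. Mitosis transcripts were therefore the more abundant in all 3 inputs, with a difference in median log2 level of -0.62, -0.24 and -0.31 for replication minus mitosis. The 3 most abundant members by mean input were on the mitosis list. Cks1b and Cks2, the small CDK-binding subunits, were at 847, 1049.7 and 1074 FPKM and at 748, 1077 and 984 FPKM. Ube2c was at 742, 813 and 929.5 FPKM, and Birc5 (survivin, of the chromosomal passenger complex) at 503, 567 and 612 FPKM. The highest replication member was Dut, which removes dUTP, at 685, 875 and 841 FPKM. Next came Rpa3, the smallest RPA subunit, at 421, 558 and 536 FPKM, and Pcna at 374, 425 and 415 FPKM. The least abundant was Orc1, the largest subunit of the origin recognition complex, at 2.57, 2.74 and 2.89 FPKM.

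**Figure D1:**
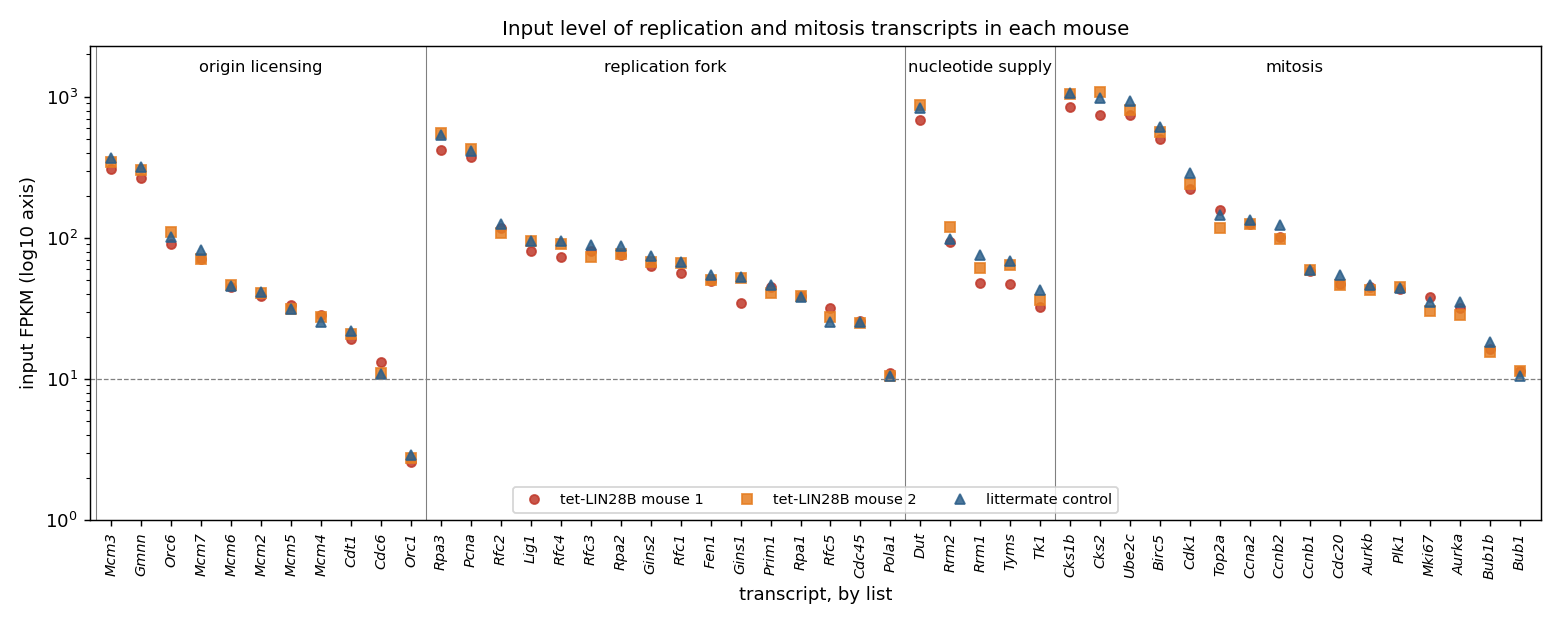
Input FPKM (log10 axis) of the 48 transcripts in the 2 tet-LIN28B mice (circles and squares) and the littermate control (triangles), by list and ordered by mean level. The dashed line is the minimum of 10 FPKM for the tests. Levels ran from 2.57 FPKM for Orc1 to 1077 FPKM for Cks2.

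Input levels of the members did not pass the test between genotypes. By limma with Benjamini-Hochberg adjustment 0 of 47 members differed, and 0 had an unadjusted p under 0.05, against 0.284% of all tested genes called and 411 of 6347 at the unadjusted threshold. The median log2 difference, tet-LIN28B minus control, was -0.12 over members and -0.07 over all tested genes. Rrm1, the large subunit of ribonucleotide reductase, had the greatest difference of any member. It was at 47.6, 61.2 and 75.8 FPKM in tet-LIN28B mouse 1, mouse 2 and the control, a log2 difference of -0.48 ± 0.21 (SE, adjusted p = 0.74). The tet-LIN28B mouse 1 input was the lowest of 3 for 28 of 47 members, and the control input the highest of 3 for 28. The matching shares over all tested genes were not computed. Median inputs of all tested genes were 31.4, 30.8 and 32.1 FPKM in tet-LIN28B mouse 1, mouse 2 and the control. The mouse 1 input also had the lowest B cell progenitor sum and the highest myeloid, T cell and megakaryocyte sums. The part of cell composition in the member levels was not tested. With 2 mice against 1 and 1 residual degree of freedom, a missed threshold does not show equal levels.

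The second question was how the level of each transcript in the IP compared with that in the input. FPKM are scaled within a library, so the ratio is a relative value and not an amount recovered. In the tet-LIN28B mice 11 of 47 members were higher in the IP than in the input and 22 were lower, against 20.2% and 41.9% of all tested genes. An average IP/input ratio above 2, the limit used by the study, was found for 5 of 47 members, against 9.79% of tested genes with a defined ratio, and a ratio below 0.5 for 16, against 31.3%. These shares are near the background. The control ratio was above 2 for 1 member and below 0.5 for 0, beside 238 and 219 of the 6347 tested genes. Ratios of individual members repeated between the tet-LIN28B mice: over the 47 members their log2 ratios correlated at r = 0.935 (rho = 0.947), and each correlated with the control at r = 0.467 and 0.465. Over all 6347 tested genes the values were r = 0.846 (rho = 0.915) between these mice, and r = 0.316 and 0.352 with the control. Those points share the libraries of a mouse and are given as a description. In what follows, values in sets of 3 are those of tet-LIN28B mouse 1, mouse 2 and the control, in this order.

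**Figure D2:**
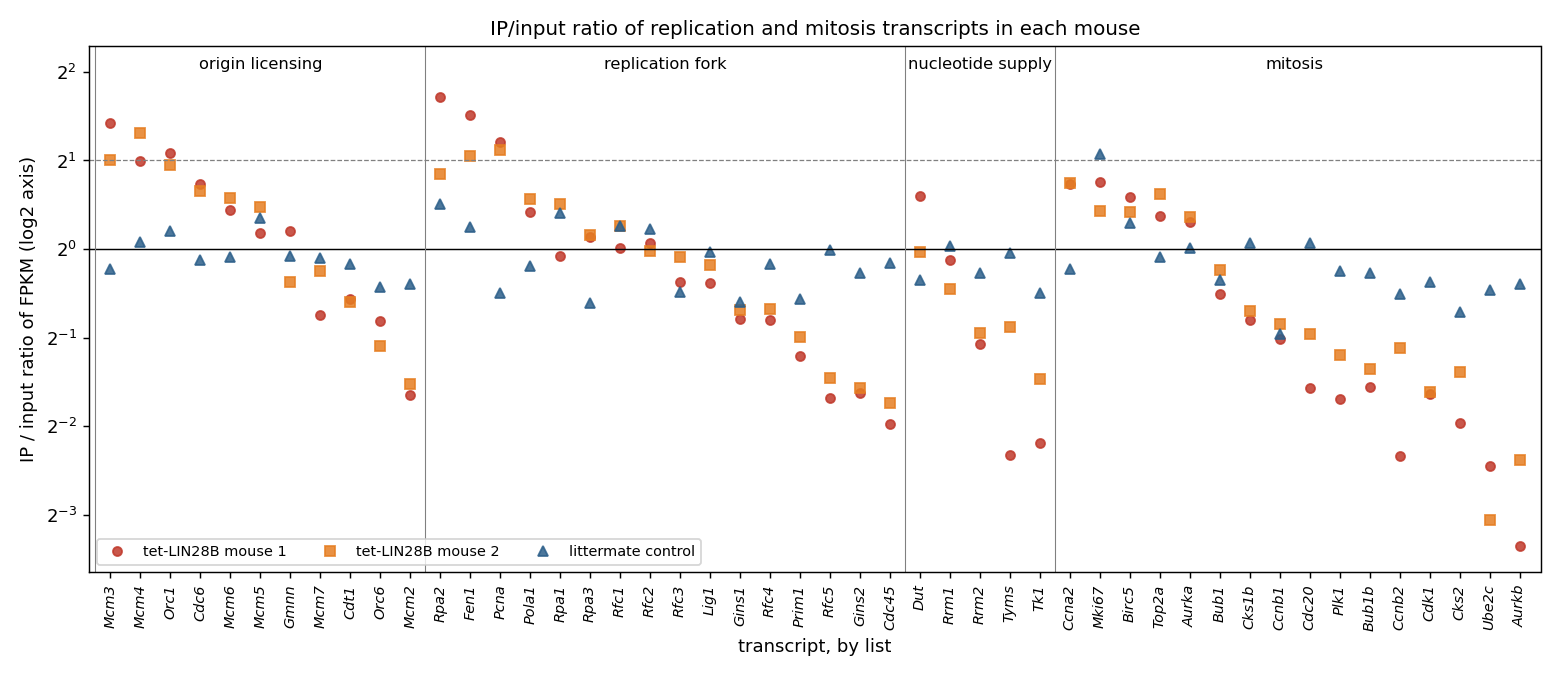
IP/input ratio of FPKM (log2 axis) for the 48 transcripts in each of 3 mice, by list and ordered by the tet-LIN28B average. The solid line is a ratio of 1 and the dashed line a ratio of 2. In tet-LIN28B mice ratios ran from 0.0981 (Aurkb) to 3.29 (Rpa2), and in the control from 0.515 (Ccnb1) to 2.10 (Mki67).

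Origin licensing transcripts were split. Of 10 tested, 4 were higher in the IP than in the input and 3 lower in tet-LIN28B mice, and 1 was higher and 1 lower than the control. Of all tested genes 20.2% and 41.9% were called higher and lower against the input, and 4.73% and 17.8% against the control. Mcm3, a subunit of the MCM2 to MCM7 helicase ring, was at 309, 347 and 369 FPKM in the inputs of tet-LIN28B mouse 1, mouse 2 and the control and at 825, 696 and 315 FPKM in their IPs. Its ratios were 2.68, 2.01 and 0.855, with both tet-LIN28B mice above the control, as for 28.0% of all tested genes. The average of the tet-LIN28B mice was 2.34 ± 0.472 (SD, n = 2) and the difference from the control was 1.44 ± 0.33 (SE) on the log2 scale (adjusted p = 0.03). Mcm4, another subunit of the ring, was at 28.4, 27.7 and 25.3 FPKM in inputs and at 56.4, 68.4 and 26.7 FPKM in IPs. Its ratios were 1.99, 2.47 and 1.05, an average of 2.23 ± 0.343 (SD, n = 2), and the difference from the control, 1.05 ± 0.31 (SE) on the log2 scale (adjusted p = 0.0555), just missed the threshold.

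Mcm2 stood on the opposite side, although its protein sits in the same ring. It was at 39.1, 40.4 and 41.1 FPKM in the inputs and 12.4, 14.0 and 31.3 FPKM in the IPs. The ratios were 0.318, 0.347 and 0.762, with a tet-LIN28B average of 0.333 ± 0.0203 (SD, n = 2), and the difference from the control was -1.14 ± 0.30 (SE) on the log2 scale (adjusted p = 0.041). The other ring subunits lay between, with average ratios of 1.42 for Mcm6, 1.26 for Mcm5 and 0.720 for Mcm7, none of which passed the test against the control. Of the loading factors, Cdc6 had an average ratio of 1.62 and Cdt1 of 0.670, and Gmnn (geminin, the inhibitor of CDT1) one of 0.963. The IP exceeded the input for Cdc6 and fell short of it for Cdt1, and neither they nor Gmnn passed the test against the control. Orc6, a small subunit of the origin recognition complex, was at 90.6, 110.2 and 101 FPKM in inputs and 51.8, 51.7 and 75.4 FPKM in IPs, and its ratios of 0.572, 0.469 and 0.743 were the second lowest of this list on average. Orc1, too low to be tested, was at 5.43, 5.30 and 3.33 FPKM in the IPs, with ratios of 2.11, 1.93 and 1.15.

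Replication fork transcripts included the highest ratios of the set. Of 16, 3 were higher in the IP than in the input and 6 lower, and 1 was higher and 3 lower than the control. The shares over all tested genes were 20.2% and 41.9% for the input and 4.73% and 17.8% for the control. Pcna, the sliding clamp, was at 868, 921 and 294 FPKM in the IPs, with ratios of 2.32, 2.17 and 0.709. Both tet-LIN28B values exceeded 2 and the control was below 1. The average was 2.24 ± 0.109 (SD, n = 2) and the difference from the control was 1.66 ± 0.30 (SE) on the log2 scale (adjusted p = 0.0163), the most positive of all members. Rpa2, the middle subunit of RPA, was at 75.8, 76.9 and 87.7 FPKM in inputs and 249, 139 and 125 FPKM in IPs. It had the highest average, 2.55 ± 1.05 (SD, n = 2), but its mice were apart at 3.29, 1.81 and 1.42, with the control also above 1. Fen1, the flap endonuclease that trims Okazaki fragments, was at 49.5, 50.5 and 54.2 FPKM in inputs and 142, 105 and 64.5 FPKM in IPs. Its ratios were 2.86, 2.07 and 1.19, an average of 2.47 ± 0.556 (SD, n = 2). The differences from the control were 0.77 ± 0.42 (SE) on the log2 scale (adjusted p = 0.219) for Rpa2 and 1.02 (adjusted p = 0.0724) for Fen1, and neither passed the threshold.

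The helicase cofactors and a clamp loader subunit were the lowest. Cdc45, the helicase activator, was at 25.8, 24.8 and 25.2 FPKM in the inputs and 6.58, 7.45 and 22.7 FPKM in the IPs. Its ratios were 0.255, 0.300 and 0.899 and its average 0.278 ± 0.0319 (SD, n = 2), with a difference from the control of -1.57 ± 0.34 (SE) on the log2 scale (adjusted p = 0.0243). Gins2, a subunit of the GINS complex, was at 62.8, 67.6 and 74.5 FPKM in inputs and 20.4, 22.8 and 62.0 FPKM in IPs. The Gins2 ratios were 0.325, 0.337 and 0.832, a difference from the control of -1.29 ± 0.29 (SE) on the log2 scale (adjusted p = 0.0273). Rfc5, a small subunit of replication factor C, was at 31.8, 27.6 and 25.3 FPKM in inputs and 9.93, 10.1 and 25.2 FPKM in IPs. With ratios of 0.312, 0.366 and 0.994 it was lower than the control by the test, at -1.47 ± 0.32 (SE) on the log2 scale (adjusted p = 0.025). The remaining clamp loader subunits had average ratios of 1.10 (Rfc1), 1.02 (Rfc2), 0.859 (Rfc3) and 0.600 (Rfc4), and none passed the test against the control. Among primase and polymerase alpha genes, Prim1 had an average of 0.468 and Pola1 of 1.41. Gins1 was at 0.600, Lig1 (the ligase of Okazaki fragments) at 0.824, Rpa1 at 1.18 and Rpa3 at 1.11, all without a call against the control. Within RPA, whose subunits work as a trimer, the averages thus ran from 1.11 to 2.55.

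Of the 5 nucleotide supply transcripts, 0 were higher in the IP than in the input and 3 were lower. All tested genes had shares of 20.2% and 41.9%. By limma 0 passed the test against the control, beside 4.73% higher and 17.8% lower over all tested genes. At an unadjusted p under 0.05, 0 were higher and 3 lower than the control, where 2517 of all 6347 tested genes passed in either direction. Tk1, the thymidine kinase of S phase, was at 32.5, 36.0 and 42.4 FPKM in inputs and 7.13, 13.0 and 30.1 FPKM in IPs. Its ratios were 0.219, 0.362 and 0.710, a difference from the control of -1.24 ± 0.37 (SE) on the log2 scale (adjusted p = 0.0587). Tyms, thymidylate synthase, was at 47.2, 64.8 and 69.0 FPKM in inputs and 9.43, 35.2 and 66.8 FPKM in IPs. The tet-LIN28B mice were apart here, at 0.2, 0.544 and 0.968, and the difference was -1.49 ± 0.55 (SE) on the log2 scale (adjusted p = 0.0962). Dut was at 1036, 855 and 658 FPKM in the IPs, with ratios of 1.51, 0.977 and 0.782. It was the highest of the list, and mouse 1 lay above 1 while mouse 2 lay just below. For ribonucleotide reductase, Rrm1 had IP levels of 43.7, 44.7 and 77.7 FPKM and ratios of 0.919, 0.731 and 1.03, and Rrm2, its small subunit, an average of 0.499.

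Mitosis transcripts held the lowest ratios of the set. Of 16, 4 were higher in the IP than in the input and 10 lower, beside 20.2% and 41.9% of all tested genes. By limma 0 were higher and 4 lower than the control, beside 4.73% and 17.8%. At an unadjusted p under 0.05 these were 1 and 8, a threshold passed by 2517 of 6347 tested genes. Ube2c was at 136, 97.8 and 675 FPKM in the IPs of tet-LIN28B mouse 1, mouse 2 and the control. Its ratios were 0.183, 0.120 and 0.726, an average of 0.151 ± 0.0441 (SD, n = 2), and the difference from the control was -2.28 ± 0.36 (SE) on the log2 scale (adjusted p = 0.0127), the least adjusted p of any member. Aurkb, the kinase of the chromosomal passenger complex, was at 45.1, 43.0 and 46.7 FPKM in the inputs and 4.43, 8.24 and 35.5 FPKM in the IPs. The ratios were 0.0981, 0.191 and 0.761, an average of 0.145 ± 0.0660 (SD, n = 2), and the difference was -2.29 ± 0.42 (SE) on the log2 scale (adjusted p = 0.0162). Its paralog Aurka, the spindle pole kinase, was at 31.7, 28.5 and 35.2 FPKM in inputs and 39.1, 36.6 and 35.6 FPKM in IPs. With ratios of 1.24, 1.28 and 1.01 Aurka did not pass the test against the control, at 0.31 ± 0.29 (SE) on the log2 scale (adjusted p = 0.464). Aurkb was the more abundant of the pair in all 3 inputs, and Aurka in both tet-LIN28B IPs.

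Cdk1, the mitotic kinase, was at 221, 243 and 289.6 FPKM in the inputs and 71.1, 79.3 and 224 FPKM in the IPs. Its ratios were 0.322, 0.326 and 0.773, a difference from the control of -1.24 ± 0.30 (SE) on the log2 scale (adjusted p = 0.0329). Cdc20, the activator of the anaphase-promoting complex, was at 46.9, 46.1 and 54.9 FPKM in the inputs and 15.8, 23.6 and 57.5 FPKM in the IPs. Its ratios were 0.336, 0.513 and 1.05, a difference of -1.29 ± 0.35 (SE) on the log2 scale (adjusted p = 0.0456). For both genes both tet-LIN28B mice lay below the control, as for 59.8% of all tested genes. The cyclins differed among themselves. Ccna2, the cyclin of S phase and early mitosis, was at 125, 125 and 135 FPKM in inputs and 208, 209.8 and 116 FPKM in IPs, with ratios of 1.66, 1.68 and 0.859. It had the highest average of the list and a difference of 0.95 ± 0.30 (SE) on the log2 scale (adjusted p = 0.0647) that missed the threshold. Ccnb1 was at 57.9, 59.7 and 59.4 FPKM in inputs and 28.7, 33.2 and 30.6 FPKM in IPs. Ccnb1 had ratios of 0.496, 0.556 and 0.515, as low in the control as with LIN28B. Ccnb2 was at 101, 98.9 and 123 FPKM in inputs and 20.1, 45.6 and 86.7 FPKM in IPs. Its ratios of 0.198, 0.461 and 0.702 were spread between the tet-LIN28B mice, and the difference of -1.18 ± 0.50 (SE) on the log2 scale (adjusted p = 0.133) missed the threshold.

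The CDK subunits were low in the IP by unequal amounts. Cks1b was at 485, 649 and 1130.0 FPKM in the IPs, with ratios of 0.573, 0.618 and 1.05. Cks2 was at 191, 410.3 and 601 FPKM, with ratios of 0.256, 0.381 and 0.611, and was the lower of the pair in every mouse. The differences from the control were -0.82 ± 0.30 (SE) on the log2 scale (adjusted p = 0.0968) for Cks1b and -0.96 (adjusted p = 0.0987) for Cks2. Mki67, the proliferation antigen, was at 38.3, 30.2 and 35.1 FPKM in inputs and 64.8, 40.9 and 73.6 FPKM in IPs. Its ratios were 1.69, 1.35 and 2.10, so that its only value above 2 was in the control IP. Of the others, Birc5 (1.42) and Top2a (1.42), a DNA topoisomerase, had average ratios above 1, and the checkpoint kinase genes Bub1 (0.776) and Bub1b (0.365) and Plk1 (0.373) had averages below 1, with no call against the control.

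Against the control, therefore, 2 of 47 members were called higher and 8 lower, beside 4.73% and 17.8% of all tested genes. These shares, too, are near the background. All 10 had both tet-LIN28B mice on the called side of the control. They were selected by a test on these same ratios, so this adds no support. Counting both tet-LIN28B ratios above the control gave 15 members, where the background was 28.0%, and both below gave 27, where it was 59.8%. The median difference was -0.25 on the log2 scale over members and -0.39 over all tested genes. After centring each library on its median these were 0.12 and -0.03, 6 of the 10 members stayed called, and Mcm2, Gins2, Cdk1 and Cdc20 did not. Under TPM scaling, in which each library sums to the same total, the medians were -0.41 and -0.55 and all 10 stayed called. The calls were lost under lower filters. With genes of at least 1 FPKM in the inputs, or without a filter, 0 members were called in either direction. Over all genes 48 were higher and 318 lower of 12576 with 1 FPKM, and 0 and 0 of 26505 without a filter. At an unadjusted p under 0.05, 20 of 48 members and 3730 of 12576 genes passed with 1 FPKM, and 14 of 48 members and 6523 of 26505 genes without a filter. Without pairing IP and input of a mouse (no replicate block), 0 members were higher and 1, Ube2c, was lower. Of all 6347 tested genes 45 were higher and 272 lower in that setting.

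**Figure D3:**
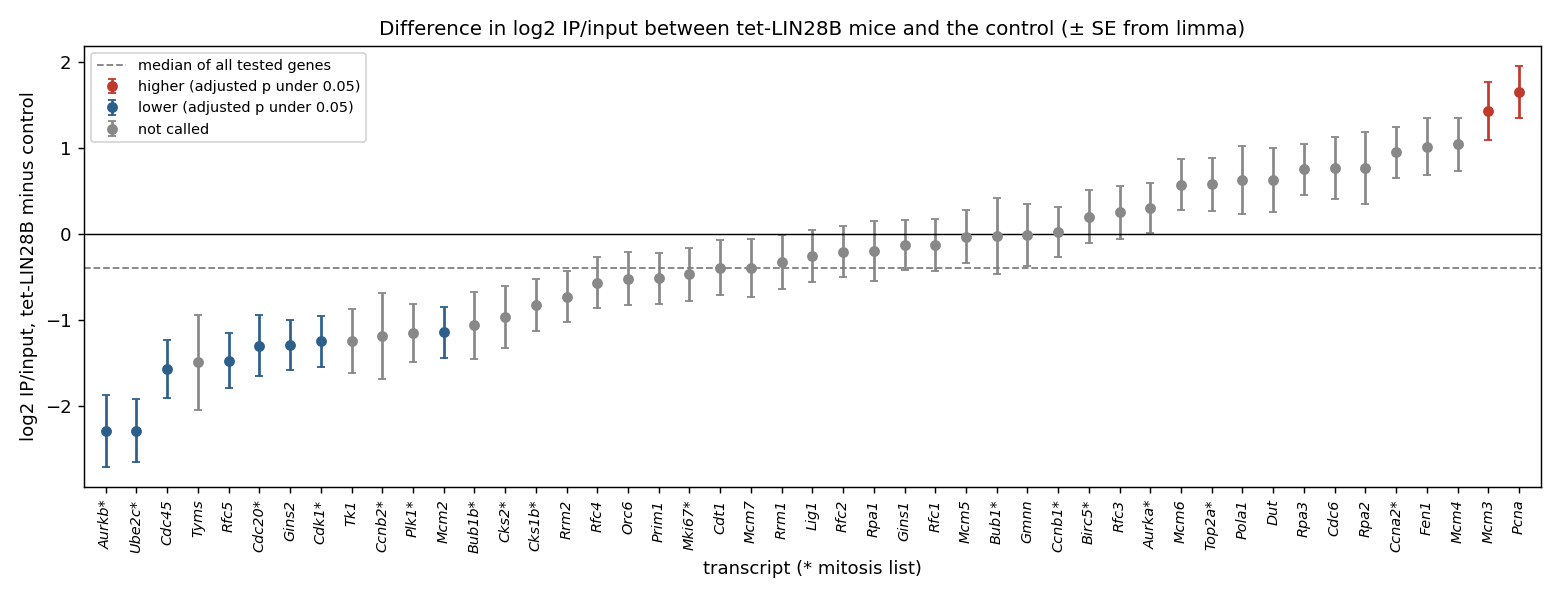
Difference in log2((IP + 1)/(input + 1)) between the 2 tet-LIN28B mice and the 1 control for the 47 tested transcripts, with the standard error from limma. The dashed line is the median of all tested genes at -0.39 and asterisks mark the mitosis list. Pcna and Mcm3 lie at the top and Aurkb and Ube2c at the bottom.

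The third question was whether replication and mitosis transcripts differed. Over the 31 tested replication members the median log2((IP + 1)/(input + 1)) was -0.12, -0.18 and -0.15 in tet-LIN28B mouse 1, mouse 2 and the control, and over the 16 mitosis members it was -1.20, -0.88 and -0.25. The medians for all tested genes were -0.41, -0.28 and -0.02. Replication minus mitosis was thus 1.08 (tet-LIN28B mouse 1), 0.70 (mouse 2) and 0.10 (control). Summed over genes, the replication members made up 0.257%, 0.292% and 0.290% of the total FPKM of the inputs and 0.378%, 0.376% and 0.297% of that of the IPs. The mitosis members made up 0.282%, 0.320% and 0.332% of inputs and 0.178%, 0.211% and 0.351% of IPs. The replication total thus exceeded the mitosis total in the tet-LIN28B IPs and was below it in all 3 inputs and in the control IP. These sums rest on a few abundant genes, singled out after their values were seen. Together Cks1b, Cks2 and Ube2c were at 2337 FPKM in the input and 812 FPKM in the IP of tet-LIN28B mouse 1 and at 2939 and 1157 FPKM in mouse 2. The other 13 mitosis members summed to 1399 and 1438 FPKM in mouse 1 and to 1431 and 1450.3 FPKM in mouse 2. The fall of the mitosis total was thus carried by those 3 genes, but the sum of the other 13 held opposite changes. In mouse 1 Cdk1 went from 221 to 71.1 FPKM and Birc5 from 503 to 756 FPKM. In the control the 3 genes were at 2988 and 2406 FPKM and the other 13 at 1610 and 1607 FPKM. Of the replication total, Dut, Rpa3 and Pcna made up 1480.1 FPKM of the input and 2367 FPKM of the IP in mouse 1, and 1858 and 2396 FPKM in mouse 2. The other 29 replication members summed to 1923 and 2406 FPKM in mouse 1 and to 2119 and 2233 FPKM in mouse 2. Genes of a list are not replicates, so these values are a description without a test.

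A difference of that size was not seen among further genes of both pathways. Of 41 other replication genes 37 were tested, with 4 above and 14 below the input in the IP and 1 higher and 2 lower than the control. Of 52 other mitosis genes 44 were tested, with 10 above and 13 below the input and 4 higher and 6 lower than the control. Shares over all tested genes were 20.2% above and 41.9% below the input, and 4.73% higher and 17.8% lower than the control. The median log2 ratios of the other replication and other mitosis genes differed by -0.09, -0.04 and -0.02 (replication minus mitosis) in the same order of mice. With members and other genes together, 68 replication and 60 mitosis genes, the difference was -0.04, 0.15 and -0.02. Among the other replication genes Cdc7, the kinase that fires origins, had the highest tested ratios at 4.96, 3.39 and 1.29, a difference from the control of 1.61 ± 0.37 (SE) on the log2 scale (adjusted p = 0.0297). Dnmt1, the maintenance DNA methyltransferase, followed at 1.66, 1.64 and 0.927. Pold4, a small subunit of polymerase delta, was lowest at 0.0743, 0.183 and 0.750, a difference of -2.56 ± 0.50 (SE) on the log2 scale (adjusted p = 0.0196). Dctpp1, a dCTP pyrophosphatase, was next at 0.174, 0.252 and 0.969. Among the other mitosis genes Nek2, a centrosome kinase, was highest at 3.38, 3.28 and 2.34, with the control above 2 as well. Prc1, which bundles midzone microtubules, had ratios of 2.73, 2.54 and 1.58. Cdca3 was lowest at 0.210, 0.279 and 0.972, a difference of -1.96 ± 0.32 (SE) on the log2 scale (adjusted p = 0.0133). Cenpm, a centromere protein, had ratios of 0.184, 0.316 and 1.18.

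**Figure D4:**
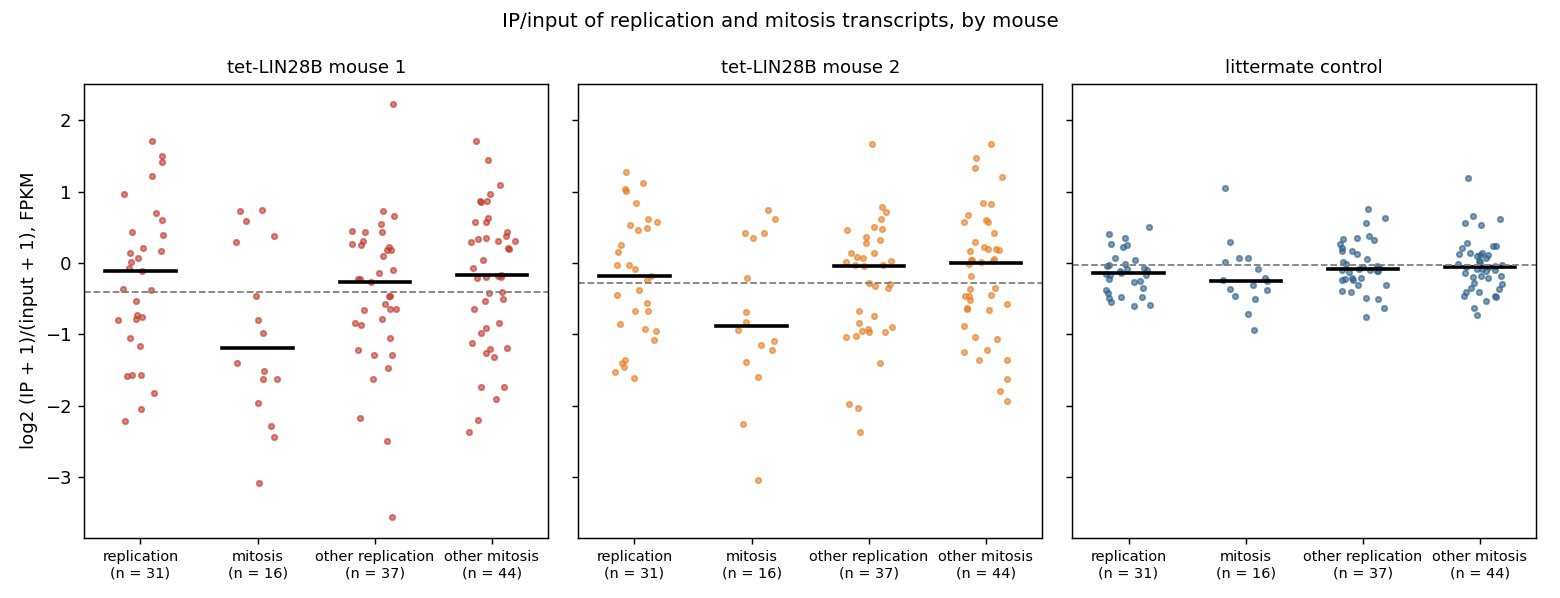
log2((IP + 1)/(input + 1)) of replication and mitosis members and of the other replication and mitosis genes in each mouse, 1 point per gene, with the median as a bar and the median of all tested genes as a dashed line. The mitosis members lie below the replication members in both tet-LIN28B mice (medians 1.08 and 0.70 apart) and the other mitosis genes do not lie below the other replication genes.

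Transcript length went along with the ratio. Over the 5653 tested genes with a coding model, length and log2 ratio correlated at rho = 0.333, 0.375 and 0.433 in tet-LIN28B mouse 1, mouse 2 and the control, as a description across genes of shared libraries. Within the 31 replication members rho was 0.17, 0.29 and 0.59, and within the 16 mitosis members 0.53, 0.35 and 0.27. The models of the mitosis members had a median of 2344 nt and those of the replication members one of 2796 nt. Among models shorter than 2482 nt, the median of all tested genes, the 15 replication members had median log2 ratios of -0.53, -0.56 and -0.35, and the 8 mitosis members -1.79, -1.13 and -0.31. All shorter tested genes were at -0.77, -0.61 and -0.16. Among longer models the 16 replication members were at -0.03, 0.12 and -0.04, the 8 mitosis members at -0.04, 0.10 and -0.24, and all longer genes at -0.04, 0.07 and 0.16. The replication and mitosis medians were thus apart in tet-LIN28B mice among short models and not among long ones. The other pathway genes with short models lay the opposite way, with 18 replication genes at -0.65, -0.80 and -0.17 and 15 mitosis genes at -0.22, -0.53 and -0.09. Those with long models were at 0.18, 0.02 and 0.17 for 19 replication genes and at 0.04, 0.04 and -0.05 for 29 mitosis genes. The models of Aurkb (1950 nt), Ube2c (2191 nt), Cks2 (692 nt) and Ccnb2 (1531 nt) are short. So are those of Pcna (1518 nt) and Rpa2 (1813 nt), and that of Cdk1 (4375 nt) is long. Of the Cdk1 model 3352 nt lie after the coding sequence. These are the longest models, and which isoform the cells held was not tested, so a gene may be in the wrong length class. The part of length in the ratios was not tested.

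**Figure D5:**
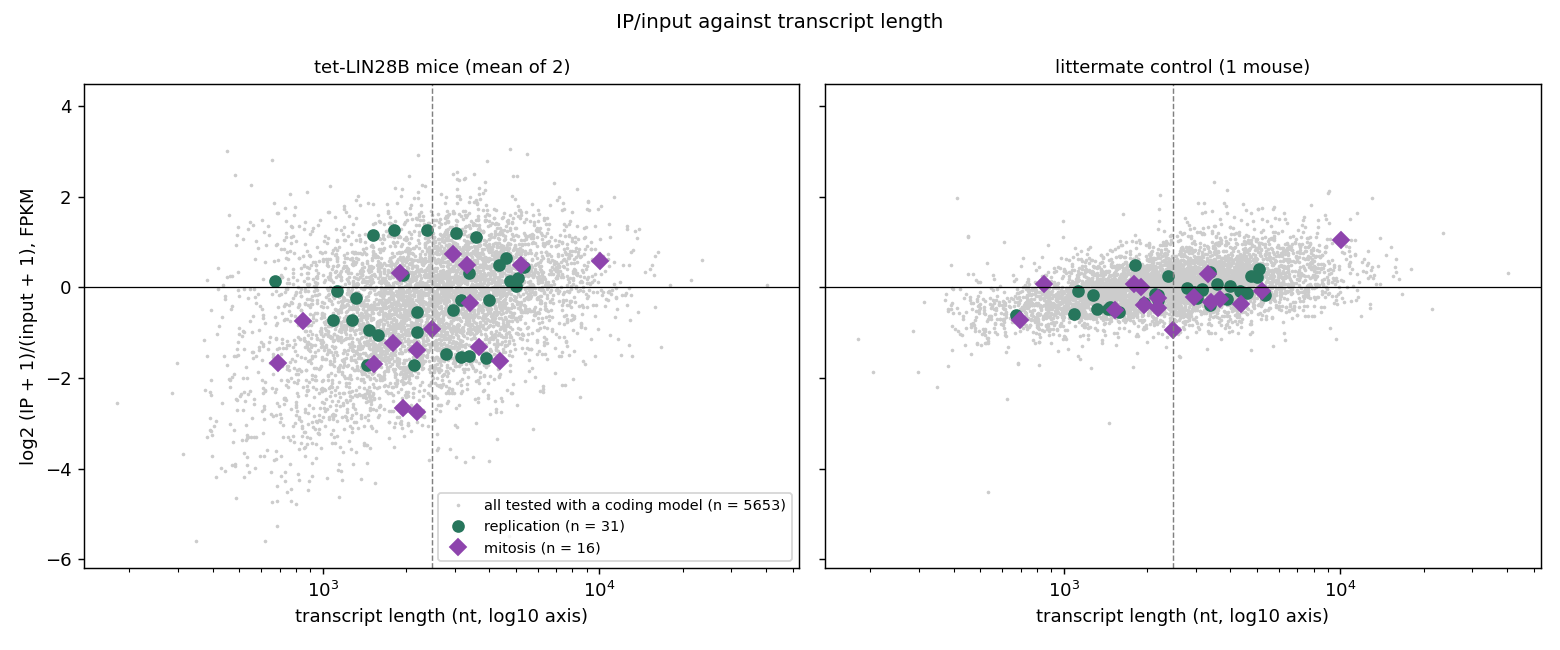
log2((IP + 1)/(input + 1)) against the length of the longest coding model (log10 axis) in the mean of both tet-LIN28B cultures and in the control, for replication members (circles), mitosis members (diamonds) and all 5653 tested genes with a model (grey). The dashed line is the median length of 2482 nt, and 1 grey point lies outside the axes. The lowest mitosis members lie on the short side of that line in the tet-LIN28B panel, and the members lie closer to 0 in the control.

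Some members share sequence with other genes, so their FPKM are uncertain. Of the 48 models 15 shared over 10% of their 50-nt words with another gene on either strand, and 18 shared none. Fen1 shared 81.2%, mostly with the opposite strand of Gm10143, whose own ratios were 2.72, 2.08 and 1.20, close to those of Fen1. Gins2 shared 70.3% with the opposite strand of Gse1, which had ratios of 0.868, 1.04 and 1.85. Cks2 shared 29.7%, and the related Gm15452, at a mean input of 259 FPKM, had ratios of 0.169, 0.415 and 0.438. Pcna shared 31.8% with Pcna-ps2, at a mean input of 2.64 FPKM. Ccna2 shared 15.9% with the opposite strand of Exosc9, with ratios of 1.32, 1.59 and 0.792. Of the members called against the control, Mcm2, Mcm3, Cdc45, Cdk1 and Aurkb shared at most 10%. Without the members sharing over 10%, replication minus mitosis was 0.53, 0.32 and 0.02 in tet-LIN28B mouse 1, mouse 2 and the control, with 22 and 10 genes.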

How the data were processed

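The authors aligned reads with STAR (2.7.1) and estimated FPKM per gene with RSEM (1.28), per the labels and the submitters' processing notes, and deposited 1 table of FPKM for 54752 genes in 6 libraries. The build was mm10. The cDNA was made with a SMART-Seq kit, which does not mark strand, so reads of overlapping antisense genes cannot be told apart. The study's text speaks of poly-A selection for IP RNA and of total RNA for inputs. Columns were assigned by their names and the sample titles, 0 columns remained without a sample, and the description of each sample ends with the opposite fraction from its title, which was not followed. Counts were not used. From the steps in low values 1 fragment was worth 0.0537 to 0.0784 FPKM × kb, so that, with fragment length ignored, 10 FPKM at 1 kb is 128 to 186 fragments depending on the library.

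For 6347 genes with a mean of at least 10 FPKM in the inputs, log2((IP + 1)/(input + 1)) was computed per mouse and fitted with limma (3.58.1, R 4.3.3, eBayes with trend, 1 residual degree of freedom), for the tet-LIN28B mean and for its difference from the control, and p-values were adjusted over all genes by Benjamini-Hochberg (0.05). The pseudocount of 1 FPKM understates changes of low genes. IP and input are paired because they come from 1 lysate. The tet-LIN28B mouse 1 minus mouse 2 differences in input and IP correlated at r = 0.12 across genes. The study's filter asks for 50 FPKM in IPs too and was an alternative. Other alternatives were filters of 1 and 50 FPKM or none, pseudocounts of 0.1 and 5, TPM scaling, median centring, no trend, no replicate block and leaving out each tet-LIN28B mouse. Transcript models, sequences and coordinates are from GENCODE M21 and GRCm38 (mm10), in which 54092 names matched.

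Values in every library are given for members with an average ratio above 2 or a call against the control, the 2 highest and 2 lowest averages of each list and 3 paralog pairs, and beyond this rule for input levels and for members noted because of them. The members, lists, markers and rules were chosen with earlier results of these data known.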

Additional observations from a re-analysis of the deposited data

Results flagged for a closer look

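The IP/input ratio differed between tet-LIN28B mice and the control by limma's test of the difference for 2 members that were higher and 8 that were lower. These were 2 and 8 of 47 tested, near the 4.73% and 17.8% of all tested genes. On the log2 scale the higher members were Pcna (1.66) and Mcm3 (1.44). The lower replication members were Cdc45 (-1.57), Rfc5 (-1.47), Gins2 (-1.29) and Mcm2 (-1.14). The lower mitosis members were Aurkb (-2.29), Ube2c (-2.28), Cdc20 (-1.29) and Cdk1 (-1.24). Adjusted p ranged from 0.0127 to 0.0456, the control was 1 mouse, and its own spread enters only through the variance shared with the tet-LIN28B mice. No group had the 4 samples needed to look for outlying libraries.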

How the results depend on the processing

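The 94 results for single members (IP against input, and tet-LIN28B against control, for 47 genes) included 33 and 10 calls. None of these 43 changed sign under the other settings tried, but all 43 lost significance under at least 1 of them. Of the results not called, 14 gained significance under at least 1 setting. Members called higher and lower than the control, 2 and 8, became 0 and 0 with a minimum of 1 FPKM and with no filter, 5 and 4 with the filter of the study, 5 and 4 with median centring, 1 and 4 with no trend, and 0 and 1 with no replicate block, and 4 were higher with a minimum of 50 FPKM. Calls over all genes moved too, from 300 and 1130 of 6347. They were 48 and 318 of 12576 with 1 FPKM, and 0 and 0 of 26505 with no filter. With the filter of the study they were 339 and 324 of 1460, and with 50 FPKM 293 and 686 of 2244. Of 6347 genes, 603 and 815 were called with centring, 165 and 928 with no trend and 45 and 272 with no replicate block. Members above and below the input in the IP, 11 and 22, became 7 and 11 with 50 FPKM, 6 and 5 with the filter of the study, and 0 and 0 with no filter (27, 18 and 48 members tested), and 7 were higher with no trend. Over all genes 1284 and 2661 of 6347 became 526 and 1112 of 2244, 522 and 512 of 1460, and 0 and 0 of 26505 under these filters. With no trend 1154 and 2583 of 6347 were called. With 50 FPKM all 18 member calls against the input still tested were kept, and with the filter of the study all 11. So were 5 of 5 and 4 of 4 member calls against the control. The share of all calls against the control that were higher was 21.0%, against 13.9% with TPM scaling and 42.5% with median centring, and of IP against input 32.5%, against 37.1% and 45.1%. The median log2 IP/input over members, -0.34, was 0.078 with the filter of the study, -0.27 with a pseudocount of 5, -0.23 with TPM and -0.077 with centring. The median difference from the control, -0.25, was -0.20 with 50 FPKM, 0.10 with the filter of the study, -0.41 with TPM and 0.12 with centring. Leaving out mouse 1 or mouse 2 of tet-LIN28B gave -0.37 and -0.46 for the first and -0.25 and -0.30 for the second, and 0.70 and 1.08 for replication minus mitosis. The study's filter keeps 18 members by their IP level, gives 3 with an average above 2 in place of 5 and a replication minus mitosis input difference of -2.24 in place of -0.39. A ratio above 2 in both mice left 3 members, and a limit of 1.5 gave 8. Replication minus mitosis in log2 IP/input, 0.84, was 0.13 with the other pathway genes added, -0.00022 among longer transcripts and 0.39 without members that share sequence. Without those, 1 member was higher and 4 were lower than the control of 32 tested, beside 4.73% and 17.8% of all tested genes. These last settings were chosen after seeing the data. The causes were not tested.

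The paired fit rests on 1 residual degree of freedom and 1 control. Leaving out a tet-LIN28B mouse left values without a test.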
